A study of Ovis aries and Bos taurus with 10 samples.

Results

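Heat shock proteins and chaperonins are the machines that fold newly made proteins, hold unfolded ones and bring back those that have lost their shape. They were taken here as the genes whose symbol on the chip annotation begins with HSPA, HSPB, HSPD, HSPE, HSPH, HSP90 or DNAJ, or names a subunit of the chaperonin CCT. The rule found 53 genes of the 9155 with a symbol on the Affymetrix Bovine Genome Array. They are covered by 80 probe sets of 24016, and 17 genes have several probe sets, up to 6 each. Each gene was represented by the probe set with the highest mean log2 signal over the captured arrays. TCP1 and CCT7, the remaining CCT subunits, are not analysed here, nor is 1 probe set annotated to a member together with a gene outside the rule.

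In folding, an HSP70 protein grips an unfolded chain and lets it go again while it splits ATP, a DNAJ protein brings the chain and starts that step, and a nucleotide exchange factor resets the cycle. HSP90 proteins finish the folding of kinases and steroid receptors, the CCT ring folds actin and tubulin, and HSPD1 with its lid HSPE1 folds proteins inside mitochondria. Small heat shock proteins hold unfolded chains without using ATP. The transcription factor HSF1 switches many of these genes on under stress, and in the mouse oocytes lacking it have too little HSP90 and go through meiosis poorly. A growing oocyte stores proteins and RNA for the embryo, while granulosa cells (GC) around it divide and secrete.

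Oocytes and GC were cut by laser capture microdissection (LCM) from frozen, stained ovary sections of new born lambs less than 1 day old. Primordial, primary and secondary follicles gave the oocyte arrays PDO, PMO and SECO, and their GC gave PDG, PMG and SECG. Each of these 6 arrays carried a pool of RNA from 2 animals at the primordial and secondary stages and from 4 at the primary stage, after 2 rounds of amplification and Arcturus turbo labelling, named P3. A further 4 arrays carried whole fetal ovary. RNA of the ovine ovary at 132 days post coitum was labelled by P3, by P2 (amplified, then labelled by the Affymetrix kit) and by P1 (the standard Affymetrix protocol), and RNA of the bovine ovary at 8 months post coitum by P1. Every condition has 1 array, so the 3 stages of a compartment were its only replicates, and their spread mixes biology with capture, amplification and hybridization. Ovine RNA was read by bovine probes, and a pool cannot show differences between animals. In such captures a lower level per cell and a smaller share of the cells that carry a transcript cannot be told apart.

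Markers of oocytes, GC and stroma were detected on arrays of both compartments. The paper checked sample purity by qPCR and reported compartment differences for its known oocyte and GC genes. How pure the captures were was not tested here. SECO differed from the other arrays in several measures. Its 5' probe set of GAPDH, a control for RNA length, gave 40.5, under the detection limit of 67.6, against 241 to 713 on the other LCM arrays, so the ratio of the 3' to the 5' signal was at least 196 on SECO, taking that limit as the 5' level, and 10.6 to 31.3 elsewhere. The ratio of the 3' to the middle probe set was 25.2 on SECO and 13.8 to 21.1 on the others, a much smaller gap. The summed signal of 8 oocyte markers was 7735, 7920 and 2723 on PDO, PMO and SECO, against 3053, 5627 and 3448 on PDG, PMG and SECG, so at the secondary stage it was lower in the oocyte capture than in the GC capture. The summed signal of 10 GC markers was 240 to 776 on the oocyte arrays and 780 to 2029 on the GC arrays, with AMH, KITLG, FOXL2 and FSHR under the detection limit on all 6. Stroma markers summed to 4369 to 15750 on the oocyte arrays and to 12700 to 47050 on the GC arrays. The 3 red blood cell markers summed to 3885 on SECO and to 61.1 to 487 elsewhere, but HBB alone gave 3838 on SECO. HBA and ALAS2 were under the detection limit on all 6 arrays. A sum of 11 immediate early genes, which respond to handling, was 819, 1354 and 3167 on PDO, PMO and SECO and 1596, 1987 and 3186 on PDG, PMG and SECG. The part of these differences in the results below was not tested, and counts by compartment are also given without SECO.

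Most members were detected. A probe set was called detected when its signal reached the limit of its array, which was 52.2, 74.2 and 67.6 on PDO, PMO and SECO and 45.8, 72.1 and 49.8 on PDG, PMG and SECG. By that limit 46, 42 and 44 members were detected on PDO, PMO and SECO and 47, 39 and 42 on PDG, PMG and SECG. Of the 53 members, 36 were detected on all 6 LCM arrays and 49 on at least 1, and these 49 were tested. The other 4 were HSPB3, a small heat shock protein of muscle, DNAJC5, which guards proteins of secretory vesicles, DNAJC22, and HSPBP1, a nucleotide exchange factor of HSP70, and no LCM signal of theirs was above 45.4. On the fetal ovary arrays 44, 44 and 46 members were detected with ovine P3, P2 and P1 and 47 with bovine P1.

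No member passed the test between compartments. The linear model of limma held stage and compartment on log2(signal + 20), and its p-values were adjusted by Benjamini-Hochberg over all 11642 probe sets detected on at least 1 LCM array. At an adjusted p under 0.05 it called 0 of 49 members, beside 0% of all probe sets, and the lowest adjusted p was 0.406 both among members and in all. At an unadjusted p under 0.05, 4 members lay beside 1295 probe sets (11.1% of all tested). The median oocyte minus GC difference of the 49 members was 0.15 on the log2 scale, beside 0.02 for all probe sets tested. Without SECO the median of the members was 0.07.

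Some members had no overlap between the compartments, most of them with the higher signals in oocytes. All 3 oocyte signals lay above all 3 GC signals for 8 members, 16.3% of those tested, beside 7.28% of all probe sets. All 3 oocyte signals lay below all 3 GC signals for 2 members, 4.08%, beside 7.71% of all. The oocyte signal was higher at each of the 3 stages for 13 members (26.5%, beside 17.7% of all) and lower at each for 7 (14.3%, beside 17.1%). Without SECO, 13 members were wholly higher in oocytes and 4 wholly lower, beside 15.9% and 15.5% of all probe sets. The 10 members separate with the 6 arrays had to be among them, since leaving out an array cannot undo a separation. Fewer arrays make such separation easier, for members as for all probe sets. These shares are descriptions without a test.

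**Figure D1:**
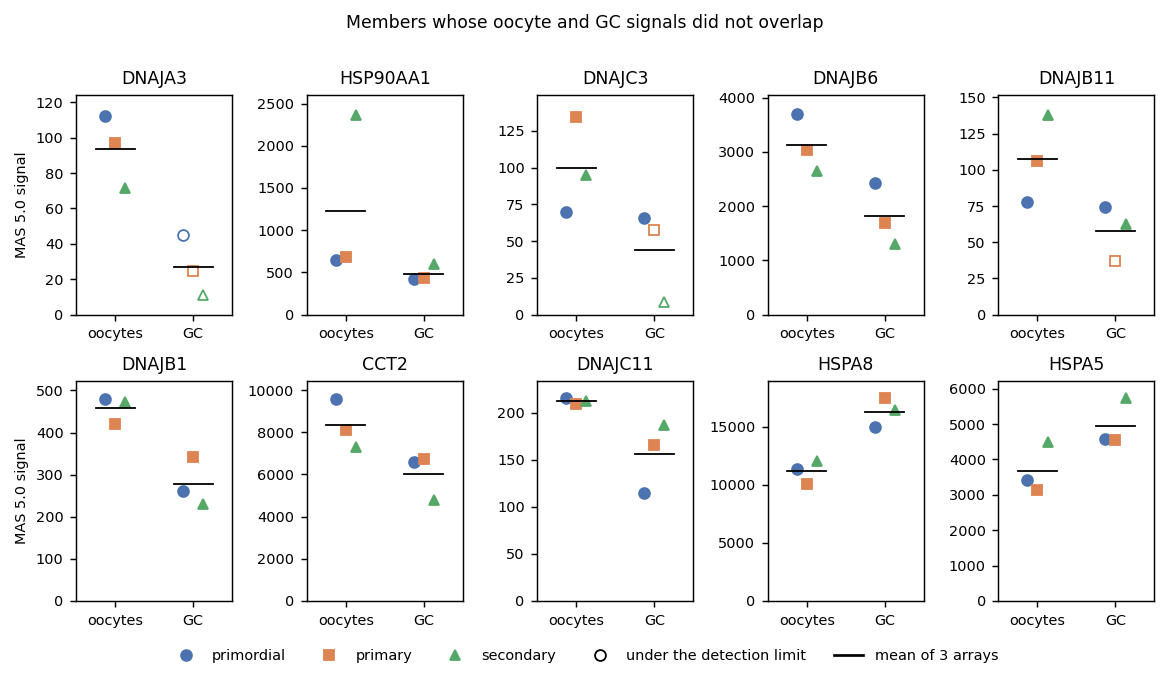
MAS 5.0 signal (linear axis from 0, its own scale in each panel) of the 10 members whose compartments did not overlap, with oocytes left of GC, 1 point for each array, its shape giving the stage, and a line at the arithmetic mean of 3 arrays. Open points lie under the detection limit of their array: all 3 GC points of DNAJA3, 2 of DNAJC3 and 1 of DNAJB11. HSPA8 and HSPA5 are the only panels with GC above oocytes, and the HSP90AA1 gap is widest through the SECO point at 2359.

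The DNAJ family made up 24 of the 49 members tested and 6 of the 8 wholly higher in oocytes, 25% of the family beside 7.28% of all probe sets. Of the 24, 17 had a positive difference (70.8%, beside 51.4% of all probe sets) and 7 a negative one, with a median of 0.22. DNAJA3 brings unfolded proteins to the HSP70 of mitochondria. Its signal was 112, 97.2 and 71.7 on PDO, PMO and SECO, against 45.2, 24.4 and 11.1 on PDG, PMG and SECG. It was thus detected on every oocyte array and on no GC array. Only a bound can be given, at least 1.5-fold higher in oocytes, taking the detection limit as the GC level (limma adjusted p = 0.406). Its GC signals lay under the limit by the least at the primordial stage, 45.2 against a limit of 45.8. On the fetal ovary by P3 it gave 124.

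DNAJB6, which keeps other proteins from clumping, gave 3704, 3044 and 2646 on PDO, PMO and SECO, against 2429, 1698 and 1310 on PDG, PMG and SECG. Its oocyte signal was higher at every stage, by 0.60, 0.83 and 1.00 at the primordial, primary and secondary stages, and its signal was lower at each later stage in both compartments. The mean difference was 0.81 ± 0.30 (SE, log2 scale), or 1.76-fold, with an adjusted p of 0.42. DNAJB1, the partner of the HSP70 made under stress, gave 480, 420 and 472 on the oocyte arrays PDO, PMO and SECO, against 262, 343 and 231 on PDG, PMG and SECG. The groups were separate with a difference of 0.69 ± 0.32 (adjusted p = 0.464). The other probe set of DNAJB1 did not show this: it gave 158, 145 and 326 in oocytes against 316, 165 and 373 in GC, a difference of -0.42.

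A pair of DNAJ proteins of the endoplasmic reticulum (ER) was also separate, close to the detection limit. DNAJB11, which works with HSPA5, gave 77.6, 106 and 138 on PDO, PMO and SECO, against 74.1, 37.3 and 62.3 on PDG, PMG and SECG. Its difference was 0.71 ± 0.34 (adjusted p = 0.486), and at the primordial stage it was only 0.05. DNAJC3, which restrains the ER stress kinase PERK, gave 69.8, 135 and 94.6 on PDO, PMO and SECO, against 65.6, 57.5 and 8.30 on PDG, PMG and SECG. It was detected on 1 of the 3 GC arrays, and its difference of 1.03 ± 0.42 (adjusted p = 0.433) was 0.53 without SECO. DNAJC11, a protein of the mitochondrial membrane, gave 215, 209 and 212 in oocytes against 114, 166 and 187 in GC. The oocyte values lay close together, and the difference was 0.43 ± 0.31 (adjusted p = 0.63).

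The other DNAJ members overlapped between compartments. DNAJA1, a cytosolic partner of HSP70, gave 471, 608 and 569 on PDO, PMO and SECO, against 809, 549 and 883 on PDG, PMG and SECG, a difference of -0.41 ± 0.33 (adjusted p = 0.662) whose sign turned at the primary stage. DNAJC7, which binds HSP70 and HSP90 at once, gave 1689, 1431 and 4434 in oocytes against 988, 1390 and 2732 in GC, higher in oocytes at each stage but by only 0.04 at the primary stage. DNAJC10, an ER protein that cuts disulphide bonds, gave 757, 482 and 575 in oocytes against 899, 520 and 682 in GC. It was lower in oocytes at each stage, by -0.20 ± 0.30 on average (adjusted p = 0.828), while its other detected probe sets, each seen on 3 arrays or fewer, differed by 0.35 and 0.41. DNAJC6, which strips the coat from clathrin vesicles, had the widest range over the stages of all members tested: its difference was 0.48, 2.41 and -0.01 at the primordial, primary and secondary stages, with detection on 2 oocyte arrays and 1 GC array. The remaining 14 DNAJ members had mean differences between -0.30 for DNAJC18 and 0.42 for DNAJC9, and of these only DNAJC27 kept 1 sign, lower in oocytes by -0.16 ± 0.30 (adjusted p = 0.865).

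Of the 3 HSP90 proteins, HSP90AA1 alone was wholly higher in oocytes. HSP90AA1, the HSP90 of the cytosol that stress induces, gave 647, 688 and 2359 on PDO, PMO and SECO, against 425, 434 and 602 on PDG, PMG and SECG. Every oocyte value was above every GC value, and the SECO value stood far above the rest. The difference was 1.05 ± 0.38, or 2.07-fold, with an adjusted p of 0.414, and without SECO it was 0.61. The other probe set of HSP90AA1, also detected on all 6 arrays, gave 523, 721 and 511 in oocytes against 474, 731 and 463 in GC. Its difference was 0.08, and SECO was not high on it. On the fetal ovary, that probe set gave 3711 with bovine P1 and 167 with ovine P1. With ovine P2 it gave 407, and with ovine P3 13.1, under the limit of 42.3. How well it reads ovine RNA labelled by P3 was not tested. HSP90AB1, the constant form, gave 1085, 1096 and 1358 in oocytes against 1298, 976 and 1795 in GC, which overlapped (-0.16 ± 0.31, adjusted p = 0.869). HSP90B1, the HSP90 of the ER, gave 91.9, 38.0 and 224 in oocytes against 78.2, 13.5 and 275 in GC and overlapped as well (0.24 ± 0.34, adjusted p = 0.816).

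The HSP70 class held both members that were wholly lower in oocytes. HSPA8, the constant HSP70 of the cytosol, gave 11370, 10020 and 12070 on PDO, PMO and SECO, against 14950, 17470 and 16420 on PDG, PMG and SECG. No oocyte value reached the lowest GC value, the difference was -0.55 ± 0.31 (adjusted p = 0.533), and GC were 1.46-fold higher. HSPA5, the HSP70 of the ER, gave 3415, 3148 and 4497 on PDO, PMO and SECO, against 4584, 4538 and 5736 on PDG, PMG and SECG. Its highest oocyte value and lowest GC value differed little, and its difference was -0.43 ± 0.30 (adjusted p = 0.606). Under quantile normalization, or with the mean of all probe sets of a gene, the compartments of HSPA5 were no longer separate. Its other probe sets were detected on no LCM array, with signals up to 42.6, so that mean includes signals under the detection limit.

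The other HSP70 members lay on the oocyte side by their mean but overlapped. HSPA1A, the HSP70 made under stress, gave 140, 223 and 264 on PDO, PMO and SECO, against 126, 184 and 120 on PDG, PMG and SECG. It was higher in oocytes at each stage, by 0.14, 0.25 and 1.02 at the primordial, primary and secondary stages, with a mean of 0.47 ± 0.33 (adjusted p = 0.612). Its other detected probe sets, each seen on 3 LCM arrays or fewer, differed by 1.11, 0.52, -0.03 and -0.31. Near-identical copies of this gene can share its probes, so the name is uncertain. HSPA9, the HSP70 of mitochondria, gave 623, 504 and 378 in oocytes against 393, 277 and 430 in GC (0.43 ± 0.34, adjusted p = 0.653). HSPA2, needed for meiosis in the male mouse, gave 821, 377 and 102 in oocytes against 262, 164 and 170 in GC, with a difference of 1.57, 1.11 and -0.64 at the primordial, primary and secondary stages. HSPA12B, a distant HSP70 of the vessel wall, gave 89.5, 87.1 and 94.6 in oocytes against 57.5, 157 and 62.0 in GC (0.08 ± 0.36, adjusted p = 0.95). HSPA14, which works at the ribosome, was higher in oocytes at each stage, by 0.26 ± 0.30 on average (adjusted p = 0.764). HSPA4 and HSPH1 of the HSP110 class reset HSP70. HSPA4 gave 973, 927 and 1233 in oocytes against 1110, 1091 and 1663 in GC, lower at each stage (-0.28 ± 0.30, adjusted p = 0.748), but its other probe set, detected on all 6 arrays, differed by 0.41. HSPH1 gave 105, 89.8 and 93.6 in oocytes against 103, 124 and 85.9 in GC and overlapped.

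**Figure D2:**
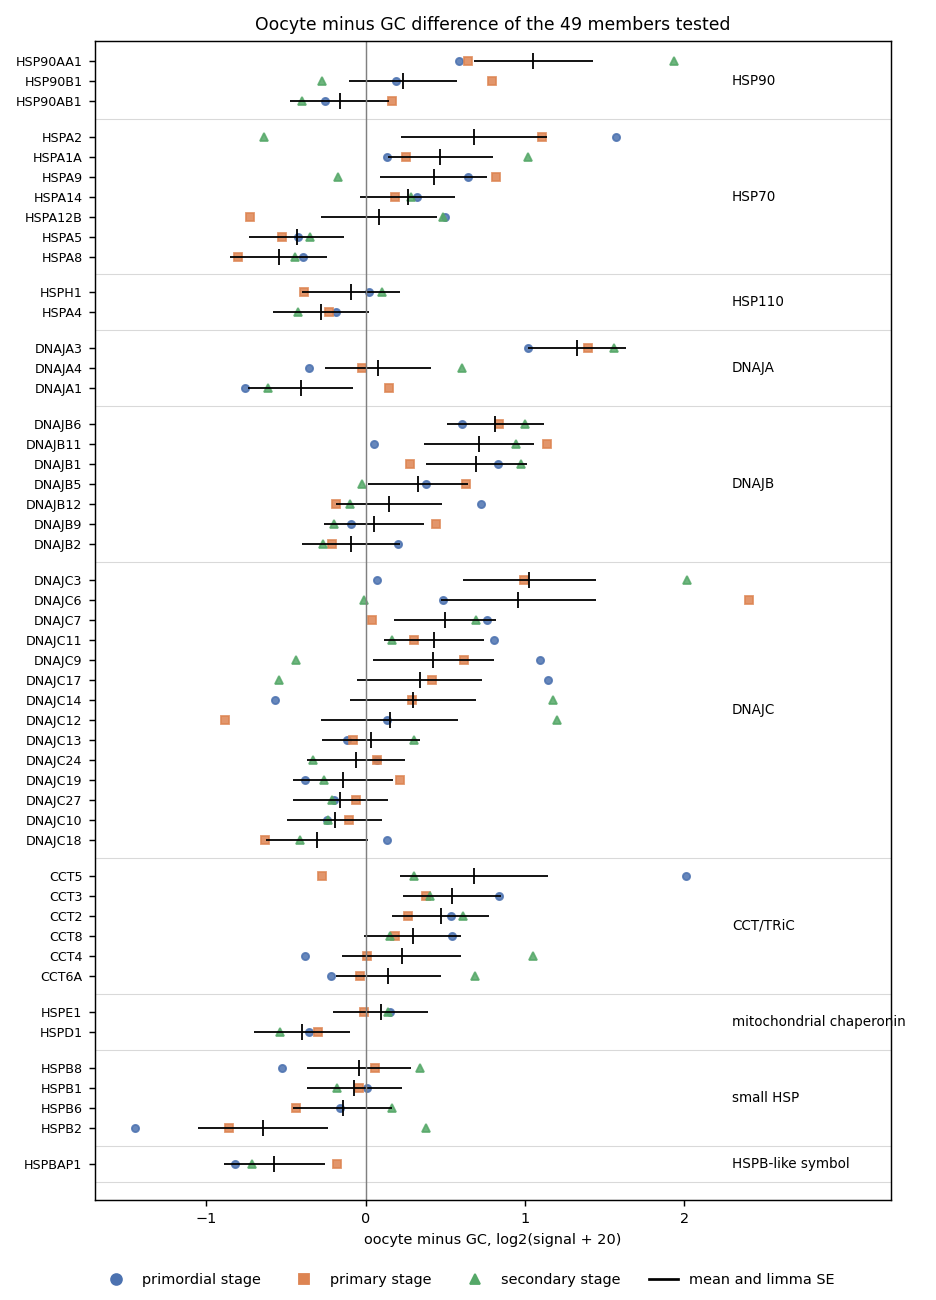
Oocyte minus GC difference on the log2(signal + 20) scale for the 49 members tested, grouped by class, with 1 point for each stage and a black tick and bar for the limma mean and its SE. The differences at single stages often cross 0 where the mean does not, and 13 members lie right of 0 and 7 left of it at all 3 stages. DNAJA3, HSP90AA1 and DNAJC3 are the members with a mean above 1.

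All 6 CCT subunits had a positive mean difference, as did 51.4% of all probe sets, with a median of 0.38 on the log2 scale, and 1 was wholly higher in oocytes. CCT2 gave 9598, 8089 and 7308 on PDO, PMO and SECO, against 6601, 6732 and 4787 on PDG, PMG and SECG. The groups were separate, and the difference was 0.47 ± 0.30 (adjusted p = 0.574). CCT3 gave 9311, 4543 and 5446 in oocytes against 5204, 3485 and 4112 in GC, higher in oocytes at each stage (0.54 ± 0.31, adjusted p = 0.538). CCT8 gave 8973, 7456 and 5572 in oocytes against 6151, 6559 and 5004 in GC, also higher at each stage (0.29 ± 0.30, adjusted p = 0.74). Each of these subunits was higher on PDO than on the later oocyte arrays.

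The remaining subunits of the ring did not keep 1 sign. CCT4 gave 2383, 2315 and 5203 on PDO, PMO and SECO, against 3105, 2306 and 2506 on PDG, PMG and SECG, so SECO alone was high (0.23 ± 0.37, adjusted p = 0.844). CCT5 gave 325, 85.4 and 273 in oocytes against 65.7, 108 and 218 in GC, with a difference of 2.01 at the primordial stage and -0.28 at the primary stage (0.68 ± 0.46, adjusted p = 0.602). CCT6A gave 776, 372 and 847 in oocytes against 906, 383 and 519 in GC, and its primary follicles were lowest in both compartments (0.14 ± 0.33, adjusted p = 0.896). The 6 subunits, which build the same ring, thus did not share 1 pattern across the arrays.

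**Figure D3:**
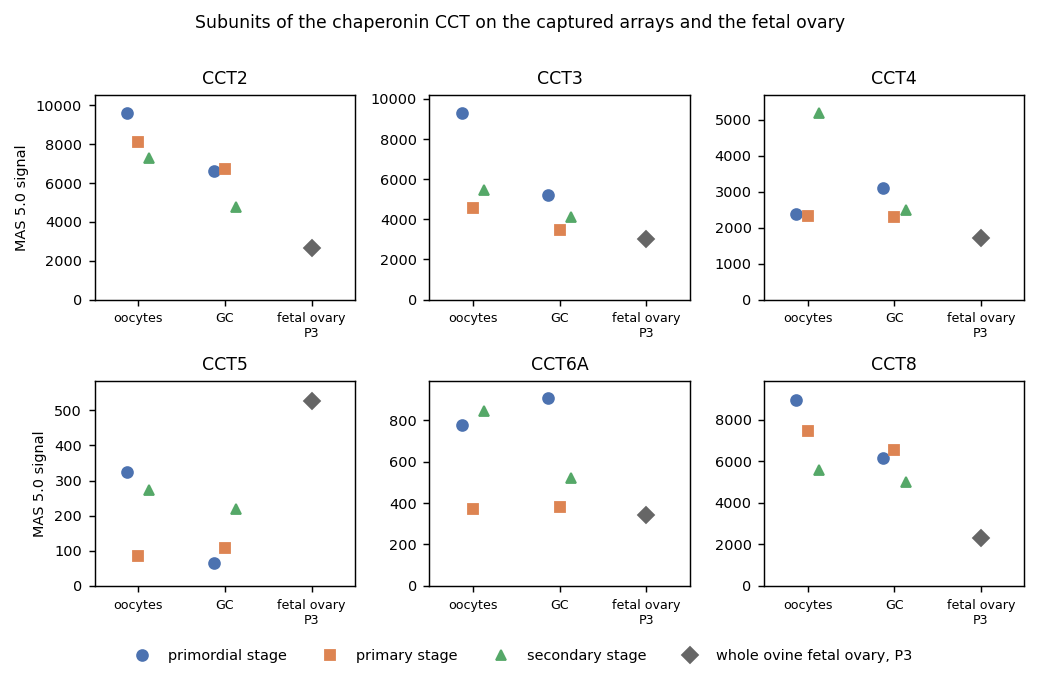
MAS 5.0 signal (linear axis from 0, its own scale in each panel) of the 6 CCT subunits on the oocyte and GC arrays, 1 point for each array with the stage as its shape, and on the ovine fetal ovary array labelled by the same protocol, P3. All LCM points of CCT2, CCT3, CCT4, CCT6A and CCT8 lie above the fetal ovary point, and all those of CCT5 lie below it.

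The mitochondrial chaperonin had no common pattern. HSPD1, the ring, gave 2153, 1591 and 2329 on PDO, PMO and SECO, against 2763, 1965 and 3389 on PDG, PMG and SECG, lower in oocytes at each stage (-0.40 ± 0.30, adjusted p = 0.636). HSPE1, its lid, gave 1135, 1431 and 1106 in oocytes against 1021, 1440 and 1000 in GC, a difference of 0.09 ± 0.30 (adjusted p = 0.93). The 6 members listed as mitochondrial had a median of 0.26 and the 6 listed as ER proteins one of 0.14. Of the mitochondrial ones, DNAJA3 and DNAJC11 were wholly higher in oocytes. Of the ER ones, DNAJB11 and DNAJC3 were wholly higher and HSPA5 wholly lower.

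All 4 small heat shock proteins tested had a negative mean difference, as did 48.6% of all probe sets, with a median of -0.11, and none kept 1 sign over the stages. HSPB1, which holds unfolded proteins and steadies actin, gave 92.7, 290 and 356 on PDO, PMO and SECO, against 92.0, 299 and 406 on PDG, PMG and SECG. The compartments could hardly be told apart at the primordial and primary stages (-0.07 ± 0.30, adjusted p = 0.95). HSPB6, a form of muscle, was detected on PDG and PMG and on no oocyte array, with 49.1, 49.5 and 46.8 in oocytes against 57.2, 74.0 and 39.6 in GC. As the oocyte limits exceed most of these GC values, no fold is given. HSPBAP1, which binds HSPB1 and is not itself a heat shock protein, gave 40.5, 76.0 and 28.3 in oocytes against 87.0, 88.9 and 59.3 in GC. It was lower in oocytes at each stage (-0.57 ± 0.31, adjusted p = 0.527), was detected on 1 oocyte array and all 3 GC arrays, and overlapped between them.

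Between stages, again no member passed. Secondary minus primordial follicles, with compartment in the same model, gave 0 calls among 49 members, beside 0% of all probe sets, with a lowest adjusted p of 0.238 among members and in all. At an unadjusted p under 0.05, 5 members lay beside 1325 probe sets (11.4% of all). The median difference was -0.03 for members and 0.05 for all probe sets. The sign was the same in oocytes and in GC for 36 of 49 members (73.5%), beside 58.6% of all probe sets. The oocytes and GC of 1 stage may come from the same lambs, so stage and animals cannot be told apart.

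HSPB1 had the largest positive stage difference of any member. Its values above came to 1.74 in oocytes and 1.93 in GC for the secondary minus the primordial stage, with the primary stage between them in both compartments. The mean was 1.83 ± 0.37, or 3.56-fold (limma adjusted p = 0.238). Its other probe set, detected on 3 arrays, also gave higher signals at later stages: 2.25, 31.6 and 139 on PDO, PMO and SECO and 37.1, 72.6 and 110 on PDG, PMG and SECG. DNAJC7 differed by 1.38 in oocytes and 1.45 in GC, with a mean of 1.42 ± 0.39 (adjusted p = 0.283). Its other probe set went the same way, with 88.2, 88.5 and 164 in oocytes and 72.1, 86.0 and 114 in GC from the primordial to the secondary stage. HSP90B1 differed by 1.12 in oocytes and 1.59 in GC (mean 1.36 ± 0.41, adjusted p = 0.322), but both primary values lay under the detection limit, so its order was not that of the stages. HSP90AA1 differed by 1.84 in oocytes and 0.48 in GC (mean 1.16 ± 0.46, adjusted p = 0.414), and the oocyte part rests on SECO. Its other probe set, detected on all 6 arrays, hardly differed between these stages: 523 and 511 on PDO and SECO, and 474 and 463 on PDG and SECG. The mean of the HSP90AA1 probe sets differed by 0.56.

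On the other side, HSPA2 differed by -2.79 in oocytes and -0.57 in GC, with a mean of -1.68 ± 0.56 (limma adjusted p = 0.353). In oocytes its signal was lower at each later stage. DNAJC9, which carries histones to HSP70, gave 969, 553 and 262 on PDO, PMO and SECO and 444, 354 and 363 on PDG, PMG and SECG. Its differences were -1.81 in oocytes and -0.28 in GC (mean -1.04 ± 0.46, adjusted p = 0.458), and whether the compartments differ in this was not tested. DNAJC12, a partner of the enzymes that hydroxylate aromatic amino acids, gave 84.9 and 40.9 on PDO and PMO, less than the limit of 67.6 on SECO, and 75.4, 92.4 and 10.4 on PDG, PMG and SECG. Both secondary values were under the detection limit, so its -1.12 ± 0.53 (adjusted p = 0.483) is no measured fold. DNAJA3 differed by -0.80 ± 0.38 (adjusted p = 0.484), with all GC values under the limit.

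**Figure D4:**
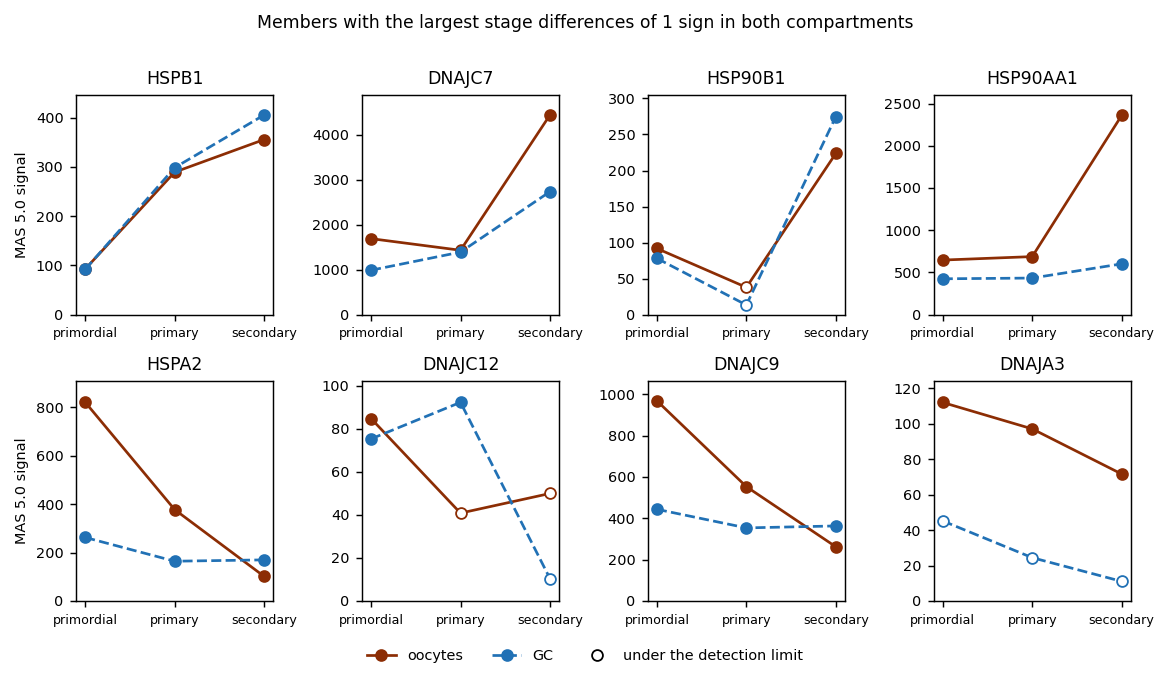
MAS 5.0 signal (linear axis from 0, its own scale in each panel) by stage, primordial to secondary, for the 4 members with the largest positive (upper row) and negative (lower row) secondary minus primordial difference of 1 sign in oocytes (solid) and GC (dashed). Each point is 1 array, and open points lie under its detection limit. The HSPB1 lines almost coincide, HSPA2 and the chosen probe set of HSP90AA1 differ between stages mainly in oocytes, and no adjusted p is below 0.238.

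The genes that work with these chaperones were read from a list of 70 heat shock factors, co-chaperones, prefoldins, tubulin cofactors and ER and mitochondrial folding helpers. Of these, 64 are on the array and 52 were tested. None passed the compartment test (0% of all probe sets did), 7 were wholly higher in oocytes and 2 wholly lower, 13.5% and 3.85% beside the 7.28% and 7.71% of all probe sets, and the median was 0.04. HSF1, the factor that responds to heat, gave 60.4, 109 and 112 in oocytes against 74.9, 80.3 and 42.8 in GC, which overlapped. HSF2 gave 137, 159 and 217 on PDO, PMO and SECO, against 98.2, 102 and 106 on PDG, PMG and SECG, and was separate (0.62 ± 0.31, adjusted p = 0.491).

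Among these helpers the largest positive difference was that of GRPEL2, an exchange factor of mitochondrial HSP70. It gave 380, 297 and 155 on PDO, PMO and SECO, against 200, 66.8 and 73.7 on PDG, PMG and SECG (1.21 ± 0.34, adjusted p = 0.406). It was higher in oocytes at each stage but overlapped. SUGT1, which links HSP90 to its clients, gave 3681, 3749 and 1862 in oocytes against 1638, 1068 and 1299 in GC (1.16 ± 0.35, adjusted p = 0.406), and PFDN2, a prefoldin that hands actin and tubulin to CCT, gave 1280, 1162 and 1344 against 559, 499 and 913 (0.97 ± 0.32, adjusted p = 0.412). Both were separate. Among helpers of 1 sign at all stages, the largest negative differences were those of the ER proteins SEC63 and CANX and of NUDCD3, a helper of HSP90. SEC63, a DNAJ-like protein of the ER channel, gave 179, 204 and 301 in oocytes against 433, 300 and 397 in GC (-0.69 ± 0.32, adjusted p = 0.471) and overlapped narrowly. CANX, which holds glycoproteins in the ER, gave 530, 643 and 845 in oocytes against 786, 970 and 1160 in GC (-0.53 ± 0.30, adjusted p = 0.536). NUDCD3 gave 195, 206 and 170 in oocytes against 218, 263 and 305 in GC and was separate (-0.42 ± 0.31, adjusted p = 0.636).

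Set beside the whole ovine fetal ovary with the same labelling, 15 of 49 members detected on either side had all 6 LCM signals above the ovary, 30.6% beside 19.5% of all probe sets. All 6 were below it for 9 members, 18.4% beside 18.1%. Member probe sets were chosen as the brightest of their gene on these same LCM arrays, and all probe sets were taken without that choice. The shares are thus not like for like, and the part of the choice in them was not tested. The ovary differs from the captures in age and in cell types, and it has 1 array. Above it were 5 CCT subunits, HSPA8, HSPA2, HSPH1, HSPE1, DNAJB6, DNAJB9, DNAJC13, DNAJC18, DNAJC24 and DNAJC27. DNAJC13 and DNAJC18 gave 28.4 and 31.7 on the ovary, under its limit of 42.3, and DNAJC13 was detected on only 1 oocyte array and 1 GC array. HSPE1 gave 1000 to 1440 on the LCM arrays and 541 on the ovary, and CCT8 gave 5004 to 8973 on the LCM arrays and 2294 on the ovary. Below it were CCT5, DNAJA3, DNAJB2, DNAJC7, DNAJC11, DNAJC14, HSP90AB1, HSPB1 and HSPB6. Of these, DNAJA3 was detected on no GC array, HSPB6 on no oocyte array, and DNAJC14 on 2 oocyte arrays and 1 GC array. HSP90AB1 gave 976 to 1795 on the LCM arrays and 2272 on the ovary, and HSPB1 gave 92.0 to 406 on the LCM arrays and 677 on the ovary.

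Some members differed more between labelling protocols than between compartments or stages. Between P3 and P1 on the same ovine fetal ovary, 7 of 48 members were at least 2-fold higher (14.6%, beside 14.2% of all probe sets detected on either array) and 6 at least 2-fold lower (12.5%, beside 25.7%). Between P2 and P1, 5 of 47 were higher (10.6%, beside 12.9%) and 7 lower (14.9%, beside 22.9%). The median of the members was -0.03 for P3 minus P1 and -0.11 for P2 minus P1, beside -0.22 and -0.09 for all probe sets. Member probe sets were chosen as the brightest of their gene on LCM arrays labelled by P3, and all probe sets were taken without that choice. These shares and medians are thus not like for like. With the mean of all probe sets of a gene, 7 of 48 members were higher and 8 lower for P3 minus P1, beside 12.5% and 20.3%. The GAPDH 3' to 5' ratio was 112 with P3, 67.7 with P2 and 1.19 with P1, and its part in these differences was not tested.

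Some of the members described above were among them. DNAJC7 gave 5799 with P3, 1501 with P2 and 553 with P1, a P3 minus P1 difference of 3.35 on the log2 scale. Its other probe set went the opposite way, with 165, 130 and 270 (-0.65). HSPA8 gave 8671, 1644 and 1139 with P3, P2 and P1, so it was far higher with P3 alone. DNAJB2, a DNAJ protein that sends clients to the proteasome, gave 436, 186 and 74.0 with P3, P2 and P1. DNAJB11 gave 48.1, 28.4 and 9.3, with P3 alone above its limit. In the other direction, HSP90B1 gave 217, 196 and 1032 with P3, P2 and P1, and HSPB1 gave 677, 736 and 2947. On these probe sets both amplified labellings were about alike and far lower than P1. The other probe set of HSPB1 was far higher with amplification, 77.9 and 58.9 with P3 and P2 against 2.1 with P1, which is under the limit of 32.1. DNAJC13, a protein of endosomes, gave 28.4, 41.5 and 129 with P3, P2 and P1, and HSPBP1 gave 21.7, 31.2 and 79.1. With P2 alone, CCT5 gave 180 against 655 with P1, and HSPA9 gave 901 against 331. The LCM arrays were all made with P3.

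Between species, both arrays made with P1, 9 of 48 members were at least 2-fold higher in the ovine than in the bovine fetal ovary (18.8%, beside 12.3% of all probe sets detected on either) and 6 at least 2-fold lower (12.5%, beside 20.5%). The median of the members was 0.40, beside -0.04 for all probe sets. Member probe sets were chosen for their brightness with ovine RNA on the LCM arrays, and all probe sets were taken without that choice. These shares and medians are thus not like for like, and the part of the choice in them was not tested. The ovine signals, given before the bovine ones, were 163 and 41.7 for DNAJB5, 422 and 147 for HSPA14, 1184 and 456 for CCT2, and 1358 and 565 for CCT3. HSPH1 had the largest negative difference, -2.26, with 108 in the ovine and 597 in the bovine ovary. This held for the chosen probe set: another one of HSPH1, detected on both arrays, gave 132 in the ovine and 47.7 in the bovine ovary, a difference of 1.16. DNAJB11 gave 9.3 and 55.8, DNAJC18 gave 58.3 and 183, and HSPB8, which clears misfolded proteins with BAG3, gave 87.3 and 224 in the ovine and the bovine ovary. Species, age, animal and the match of ovine RNA to bovine probes cannot be told apart here, with 1 array each.

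**Figure D5:**
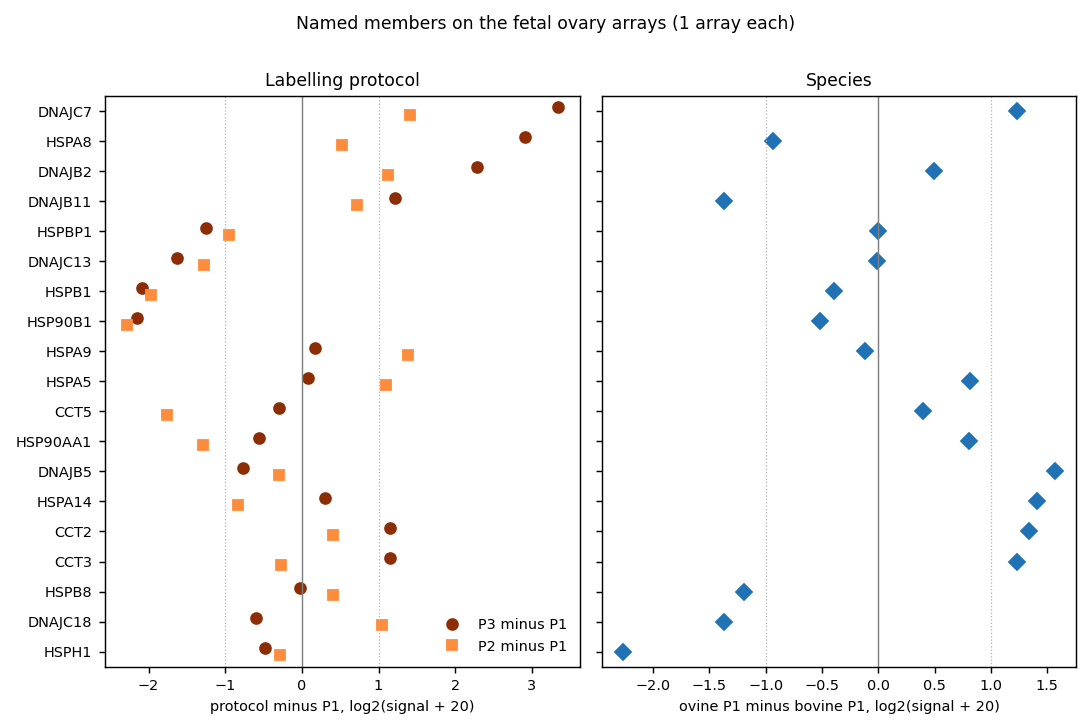
Differences on the log2(signal + 20) scale for members named for the fetal ovary: left, P3 minus P1 (circles) and P2 minus P1 (squares) on ovine RNA, and right, ovine P1 minus bovine P1. Dotted lines mark a 2-fold difference, and each point compares 1 array with 1 array. DNAJC7 and HSPA8 lie far right with P3, HSPB1 and HSP90B1 lie near -2 with both amplified protocols, and HSPH1 is lowest in the species panel, each by its chosen probe set.

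Probe sets of the same member did not always go the same way. Besides the chosen ones, members have 27 probe sets, and 14 of these, for 9 genes, were detected on an LCM array. Of the 14, 6 had the sign of the chosen probe set in the oocyte minus GC difference and 8 the opposite one, 42.9% of the same sign beside 61.4% (678 of 1104) over all genes. HSPA14 was among those of the same sign (0.41 for the other probe set). DNAJB12 was among the opposite ones, with -0.42 and -0.81 on its other probe sets and 0.15 on the chosen one. On the fetal ovary, other probe sets had the sign of the chosen one in 8 of 17 cases for P3 minus P1 (47.1%, beside 51.4% over all genes), 9 of 18 for P2 minus P1 (50%, beside 44.7%) and 13 of 20 for ovine minus bovine (65.0%, beside 58.7%). The compartment differences of DNAJB1 and HSP90AA1 and the stage difference of HSP90AA1 therefore hold for the probe sets named by the rule. So do the labelling differences of DNAJC7 and HSPB1 and the species difference of HSPH1. None of these can be read as a difference of the gene as a whole, and which probe set reads its gene better was not tested.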

How the data were processed

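The authors amplified and labelled the RNA, hybridised it to Affymetrix Bovine Genome Arrays and deposited MAS 5.0 signal intensities on a linear scale, scaled on every array to a trimmed mean of 100. The signals were extracted with default parameters. The submitters' processing notes also name GCOS, without a version. Present calls were not used. A probe set counted as detected when it was among the brightest of its array in the percentage of present calls given by the study's supplementary text. Symbols came from the platform annotation, where 13292 of 24016 probe sets have 1 symbol.

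log2(signal + 20) was fitted with limma 3.58.1 (R 4.3.3) on the 6 LCM arrays, with stage and compartment as terms, 2 residual and 5.43 prior degrees of freedom, and Benjamini-Hochberg adjustment over 11642 probe sets at 0.05. The script was tested on simulated data. The fetal ovary arrays were compared without a test. The number of arrays limits the precision. Members and lists were chosen with earlier results of these data known. Genes with full values were the brightest of each class, the main members of each class, those whose compartments did not overlap, and the largest differences of 1 sign. HSF1 and HSF2 were chosen after their values were seen, as were DNAJC6, HSPA12B, HSPB6, HSPA14 and DNAJB12. Alternatives changed the added constant, the normalization, the filter, the detection, the model, the probe sets of a gene and the stages used. No sequence is shown.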

Additional observations from a re-analysis of the deposited data

How the results depend on the processing

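No alternative gave a call for a member in the compartment or the stage comparison (0 of the members in each), and most gave none among all probe sets either. With an intensity trend in the prior variance, 10 probe sets (0.0859%) passed for oocyte minus GC and 67 (0.576%) for secondary minus primordial. For secondary minus primordial, 37 (0.318%) passed with an added constant of 50 and 18 (0.155%) without the primary stage. The lowest adjusted p of a member was 0.161 to 0.618 for oocyte minus GC and 0.0501 to 0.432 for secondary minus primordial. Of 14 named compartment differences, 12 kept their sign under every alternative. These genes all had 1 sign at the 3 stages, so only quantile normalization and the mean of all probe sets could have turned it. With the mean of all probe sets of a gene HSPA4 was 0.062 and DNAJC10 was 0.19, the opposite of the sign in the report. The 8 named stage differences kept their sign, but they were named for 1 sign in both compartments, so the same limit holds. Members wholly lower in oocytes were 1 under quantile normalization and 1 with the mean of all probe sets, beside 8.1% and 7.32%. Leaving out the array of secondary oocytes, chosen after seeing the data, gave 13 wholly higher and 4 wholly lower, beside 15.9% and 15.5% of all probe sets. Leaving out 1 stage at a time gave 11 to 16 wholly higher and 4 to 6 wholly lower, beside 17.6% to 21.4% and 16.4% to 22.3% of all probe sets. It gave 16 to 21 higher and 11 to 12 lower at each stage left, beside 27.8% to 30.3% and 25.8% to 31.4%, since fewer arrays need to be separate. Past a 4-fold minimum 3 of 48 members were higher and 2 lower for P3 minus P1, beside 2.56% and 7.10% of all probe sets. The counts were 0 and 1 of 47 for P2 minus P1, beside 1.02% and 6.68%, and 0 and 1 of 48 for ovine minus bovine, beside 1.21% and 5.34%. With an added constant of 50, 3 were higher for P2 minus P1 (beside 8.33%) and 2 lower for ovine minus bovine (beside 13.04%). With the mean of all probe sets, 2 were higher for P2 minus P1 (beside 11.1%) and 5 for ovine minus bovine (beside 10.5%). The cause of these shifts was not tested. Except with the mean of all probe sets, these fetal ovary counts rest on member probe sets chosen on the LCM arrays. The shares beside them are of probe sets taken without that choice. No paired analysis was possible because each group has 1 array, so that groups share only the replicate number 1. Stage, by which an oocyte array meets a GC array, is a term of the model, and without that term the lowest adjusted p of a member was 0.518 for oocyte minus GC. A signal near the detection limit, such as those of DNAJA3, DNAJC3 and DNAJB11, bounds what can be said of a difference.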
